A study of Sus scrofa with 15 samples.

Results

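The AP-1 transcription factors are dimers of basic leucine zipper proteins, and 10 of their genes were followed here by symbol in the count table: *FOS*, *FOSB*, *FOSL2*, *JUN*, *JUNB*, *JUND*, *BATF*, *BATF3*, *ATF3* and *MAFF*. All 10 were found among the 29886 genes of the table, and 6 of them were listed as immediate early genes (*FOS*, *FOSB*, *JUN*, *JUNB*, *ATF3* and *MAFF*), while the other 4 (*FOSL2*, *JUND*, *BATF* and *BATF3*) were taken as the slower or constitutively transcribed members. The counts came from 3 porcine NK cell populations, each taken from the same 5 animals at 6 months of age and purified by magnetic depletion and FACS as CD3- and CD172a-negative cells with CD8α. These were CD8α high blood NK cells (cNK), CD8α high liver NK cells and, also from the liver, CD8α dim NK cells (lrNK), with 5 libraries each and 15 in all. Liver cells were flushed from the organ through the portal vein with ice-cold PBS. The comparisons asked how transcription in the liver populations differed from that of the circulating cells and between the liver populations.

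AP-1 proteins bind DNA only as dimers: JUN proteins can pair with each other or with FOS proteins, whereas FOS proteins need a partner. In resting lymphocytes the immediate early members are transcribed at a low level, and MAP kinase and calcium signals raise them within minutes without new protein synthesis, after which their messengers are quickly degraded. In NK cells AP-1 dimers take part, together with NFAT factors, in the transcription of cytokine and effector genes after receptor engagement.

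Library preparation from the 3′ end of polyadenylated transcripts gave between 2003499 and 5680221 counts per library, with a median of 3749615 in the blood libraries, 3877028 in the CD8α high liver libraries and 2407859 in the CD8α dim libraries. Longer transcripts gain no additional 3′ counts, so the levels of different members are set side by side in CPM, scaled by TMM library size, without a correction for length. Reads beyond the end of a gene model may not have been counted, which was not tested. Rankings, shares and sums of members therefore hold for counted reads only. A count of 0 allowed a level of up to 3 counts, which was between 0.517 CPM in the deepest library (CD8α high liver NK cells of pig 4) and 1.46 CPM in the lrNK library of pig 3. Intervals and these upper limits cover counting error only. Within the populations, the lrNK library of pig 3 was the least like its group: compared with the other 4 lrNK libraries, its chi-square divided by the degrees of freedom was 33.2 to 51.3, beside 9.82 to 29.0 for the remaining pairs within a population.

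The marker genes of the sorted cells were read first. Summed levels of 12 NK cell markers were 4086.5 ± 454 CPM (SD, n = 5) in blood, 4418 ± 239.6 CPM in CD8α high liver NK cells and 5180.0 ± 1033 CPM in lrNK cells. On average, *NKG7* was the most abundant of them in blood, *KLRK1* in CD8α high liver NK cells and *KLRB1* in lrNK cells. Of the 12, 7 differed between lrNK cells and blood, 5 of them higher in lrNK cells, beside 18.2% of all tested genes. Of the higher ones, *CD247* and *NKG7* lost their calls in 11 of 28 alternatives each and *KLRD1* in 9. *CD8A* had 465.6 CPM in blood, 490.3 CPM in CD8α high liver NK cells and 43.4 CPM in lrNK cells, which matches the gates. Of 8 T cell markers, *CD4*, *CD5* and *CD28* were at 0 in all 15 libraries, and the sum was 1093 ± 218 CPM in blood, 1028 ± 145 CPM in CD8α high liver NK cells and 466.1 ± 197 CPM in lrNK cells. *CD3G* was the most abundant of them and the only 1 of 4 tested to differ, lower in lrNK cells than in blood and than in CD8α high liver NK cells, beside 18.2% and 14.6% of all tested genes, while with the pig as a block *CD3E* also passed between lrNK and CD8α high liver NK cells. Of 15 myeloid markers 8 were at 0 everywhere, and the sum was 6.73 ± 3.86 CPM, 6.95 ± 2.74 CPM and 15.8 ± 14.6 CPM in the order blood, CD8α high liver and lrNK. *CST3* was the most abundant of them in both CD8α high populations and *LYZ* in lrNK cells, where 25.6 CPM of *LYZ* came from the library of pig 4. *LYZ* was higher in lrNK cells than in CD8α high liver NK cells, but not with the pig as a block. Hepatocyte markers summed to 0 CPM in every blood library, 1.19 ± 1.55 CPM in CD8α high liver NK cells and 4.93 ± 4.31 CPM in lrNK cells. *TF* was the most abundant on average in the former and *ALB* in the latter, and *APOA1*, *APOC3*, *TTR* and *SERPINA1* were at 0 throughout. Endothelial markers, led by *PECAM1*, summed to 5.16 ± 4.99, 3.27 ± 0.975 and 9.89 ± 7.28 CPM, and *CDH5*, *STAB2* and *LYVE1* were at 0. Platelet and erythroid markers, led by *GP9*, had 159 ± 133, 111 ± 26.0 and 129 ± 32.4 CPM. The blood library of pig 4 stood apart in these, with 395 CPM, of which *GP9* was 78.1 CPM, while the other blood libraries had 76.4 to 111.6 CPM. The same library had the highest *JUN* and the lowest *FOSL2* level among the blood libraries, and leaving it out kept the calls of both *JUNB* and *FOSL2*. A marker at 0 in all libraries may also have reads beyond its gene model, which was not tested.

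B cell markers did separate the populations. The 8 measured B cell genes summed to 97.3, 123, 208, 139 and 69.6 CPM in the blood libraries of pigs 1 to 5, to 78.0, 71.2, 44.1, 53.6 and 48.7 CPM in the CD8α high liver libraries and to 586, 1171, 649.8, 1119 and 499.6 CPM in the lrNK libraries. Every lrNK library was above every CD8α high library, *MS4A1* was on average the most abundant of these genes in blood and lrNK cells and *BLK* in CD8α high liver NK cells, and *CD79A* was listed at 0 in all 15. Of the 7 B cell genes tested, 6 were higher in lrNK cells than in either CD8α high population, beside 8.62% and 6.96% of all tested genes higher than in blood and CD8α high liver NK cells. Against blood *CD79B* lost its call in 4 of 28 alternatives and *EBF1* and *PAX5* in 1 each, and against CD8α high liver NK cells *EBF1* lost it in 1. Dendritic cell markers, led by *IRF8*, summed to 67.0 ± 25.2 CPM in blood, 75.7 ± 31.8 CPM in CD8α high liver NK cells and 291 ± 55.0 CPM in lrNK cells, and *CLEC9A* was at 0. In lrNK cells 3 of 3 tested were higher than in blood and than in CD8α high liver NK cells, beside the same shares of all tested genes, and *TCF4* lost its call against blood in 1 of 28 alternatives. Of these 3, *XCR1* had 9 to 40 counts per lrNK library and at most 1 count in any other library. *XCR1* passed the filter on low counts described below only through the lrNK libraries, so the 3 of 3 was partly set by that filter. The share of counts from 13 mitochondrial genes was 4.01 ± 0.648% in blood, 3.22 ± 0.166% in CD8α high liver NK cells and 2.75 ± 0.334% in lrNK cells. The part of these differences in the AP-1 results below was not tested. In bulk libraries of this kind, fewer cells that transcribe a gene and less of its RNA in each cell cannot be told apart.

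Most AP-1 counts came from 4 genes. Over the 15 libraries *FOSL2* held 36.7% of the counts of the 10 members, *JUND* 29.5%, *JUNB* 16.8% and *JUN* 12.3%, followed by *BATF* with 3.08% and *FOSB* with 1.06%. These shares are pooled over libraries of unequal depth, and the order differed between populations: *FOSL2* was ahead of *JUND* on average in both CD8α high populations and behind it in lrNK cells (95.6 and 160.2 CPM). These 6 genes had at least 1 count in all 15 libraries and were the only members to pass the filter on low counts, which left 10939 genes for testing. *ATF3*, *BATF3*, *MAFF* and *FOS* were counted 96, 38, 15 and 4 times in total, so they are described by their counts and have no test with the filter applied. When all genes with at least 1 count were kept, the 10 members were tested and these 4 passed the threshold in none of the 3 comparisons (quasi-likelihood test of edgeR, Benjamini-Hochberg). DESeq2 called none of them either, where a gene without an adjusted p counted as not called. With so few counts, as for *FOS* with 4 in 1 library, a call could hardly be reached. These outcomes therefore do not show that the 4 genes were alike between populations.

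*JUNB* and *FOSL2* were the members that differed between populations. *JUNB* encodes a JUN protein that activates transcription less strongly than JUN and can restrain it, and its gene lies on chromosome 2 from 66214086 to 66219435 of assembly Sscrofa11.1. Its level was 77.8, 109, 106, 102 and 87.3 CPM in the blood libraries of pigs 1 to 5, 90.8, 79.9, 97.3, 58.1 and 96.0 CPM in the CD8α high liver libraries, and 62.7, 59.0, 36.5, 29.5 and 47.5 CPM in the lrNK libraries. Each lrNK library was below each blood library, and within every pig the lrNK library was the lowest of the 3, although the CD8α high liver library of pig 4 lay under the lrNK libraries of pigs 1 and 2. Means were 96.3 ± 13.2 CPM (SD, n = 5) in blood, 84.4 ± 16.2 CPM in CD8α high liver NK cells and 47.1 ± 14.2 CPM in lrNK cells. *JUNB* fell in lrNK cells relative to blood by 1.04 on the log2 scale (standard error 0.22, adjusted p = 0.00161, quasi-likelihood test of edgeR, Benjamini-Hochberg, lower in 5 of 5 pigs), a call kept in all 28 alternatives with adjusted p-values from 1.27e-04 to 0.0120. Relative to CD8α high liver NK cells it fell by 0.84 (standard error 0.22, adjusted p = 0.00985, edgeR, Benjamini-Hochberg, lower in 5 of 5 pigs). That last call was lost when all libraries of pig 3 were left out (log2 fold change -0.71, adjusted p = 0.0551) or those of pig 5 (-0.80, adjusted p = 0.06995), with adjusted p-values from 0.00355 to 0.06995 over the 28 alternatives (edgeR or DESeq2, Benjamini-Hochberg).

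*FOSL2*, which encodes FRA-2, a FOS protein that accumulates later and lasts longer than FOS and FOSB after a stimulus, lies on chromosome 3 from 110820403 to 110842903. It was the most abundant member in both CD8α high populations, at 187, 202, 168, 109 and 243 CPM in blood of pigs 1 to 5 and at 184, 261, 175, 189.9 and 223 CPM in CD8α high liver NK cells. In lrNK cells it had 104, 96.5, 129, 48.9 and 99.5 CPM. Every lrNK library was below every CD8α high liver library, and the only overlap with blood was the lrNK library of pig 3, which lay above the low blood library of pig 4. The mean was 182 ± 48.9 CPM (SD, n = 5) in blood, 207 ± 35.7 CPM in CD8α high liver NK cells and 95.6 ± 29.1 CPM in lrNK cells. *FOSL2* thus fell by 0.93 on the log2 scale between blood and lrNK cells (adjusted p = 0.00620, edgeR, Benjamini-Hochberg, standard error 0.23) and by 1.11 between CD8α high liver NK cells and lrNK cells (adjusted p = 0.00162, edgeR, Benjamini-Hochberg, standard error 0.23), in 5 of 5 pigs both times. The latter call was kept in all 28 alternatives, with adjusted p-values from 8.75e-05 to 0.0208 (edgeR or DESeq2, Benjamini-Hochberg). Without pig 5 the difference from blood was -0.81 with an adjusted p of 0.0551, the highest of 28 alternatives, which began at 0.00102 (edgeR or DESeq2, Benjamini-Hochberg).

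*JUND*, the JUN gene that is transcribed in most resting cells and varies little with growth signals, lies on chromosome 2 from 59530991 to 59532846. Its level was 127, 159, 102, 111 and 108 CPM in the blood libraries of pigs 1 to 5, 124, 151, 138, 102 and 135 CPM in the CD8α high liver libraries, and 189, 146, 165, 151 and 149 CPM in the lrNK libraries. The lrNK library was the highest of its pig in 4 of 5 pigs, with pig 2 as the exception, and the 3 populations overlapped. With means of 122 ± 23.0 CPM (SD, n = 5) in blood, 130.1 ± 18.2 CPM in CD8α high liver NK cells and 160.2 ± 17.8 CPM in lrNK cells, *JUND* differed by 0.40 between lrNK cells and blood without passing the threshold (higher in 4 of 5 pigs, standard error 0.16, adjusted p = 0.0983, edgeR, Benjamini-Hochberg). It passed without pig 2 (0.55, adjusted p = 0.0484) and without the blood library of pig 2 (0.51, adjusted p = 0.0385), in a range from 0.0385 to 0.251 over the 28 alternatives (edgeR or DESeq2, Benjamini-Hochberg). Between lrNK cells and CD8α high liver NK cells *JUND* differed by 0.30 (higher in 4 of 5 pigs, standard error 0.16, adjusted p = 0.262, edgeR, Benjamini-Hochberg).

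*BATF* encodes a short protein without an activation domain that pairs with JUN proteins and binds DNA jointly with IRF4 or IRF8, and its gene spans chromosome 7 from 98670211 to 98692230. It had 8.40, 16.4, 17.9, 17.0 and 15.01 CPM in the blood libraries of pigs 1 to 5, 15.9, 17.4, 13.1, 18.3 and 20.1 CPM in the CD8α high liver libraries, and 4.57, 5.28, 9.74, 4.77 and 15.7 CPM in the lrNK libraries. The lrNK library of pig 5 lay among the CD8α high libraries, whereas the other 4 were below all of them but the blood library of pig 1, which was itself below the lrNK library of pig 3. The mean was 14.95 ± 3.81 CPM (SD, n = 5) in blood, 16.9 ± 2.63 CPM in CD8α high liver NK cells and 8.01 ± 4.78 CPM in lrNK cells. Neither difference passed the threshold, with a log2 fold change of -0.88 from blood (standard error 0.39, adjusted p = 0.131, lower in 4 of 5 pigs) and of -1.07 from CD8α high liver NK cells (standard error 0.39, adjusted p = 0.0750, edgeR, Benjamini-Hochberg, lower in 5 of 5 pigs). Without the lrNK library of pig 5 both passed, at -1.30 (adjusted p = 0.0269) and -1.49 (adjusted p = 0.0140), and without all of pig 5 the latter was -1.42 (adjusted p = 0.0497, edgeR, Benjamini-Hochberg). Over the 28 alternatives the adjusted p-values ran from 0.0269 to 0.373 against blood and from 0.0140 to 0.254 against CD8α high liver NK cells (edgeR or DESeq2, Benjamini-Hochberg).

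*JUN*, the founding member and strongest activator among the JUN genes, lies on chromosome 6 from 153686425 to 153687635, a gene model of only 1211 bases. Reads beyond the end of a gene model may not have been counted, and whether this affected *JUN* was not tested. Its level was 55.3, 47.7, 48.0, 70.5 and 51.2 CPM in the blood libraries of pigs 1 to 5, 70.1, 106, 58.3, 50.5 and 40.1 CPM in the CD8α high liver libraries, and 52.3, 71.5, 59.4, 51.7 and 26.1 CPM in the lrNK libraries. The populations overlapped widely, with the CD8α high liver library of pig 2 as the highest and the lrNK library of pig 5 as the lowest. *JUN* did not pass the threshold in any comparison: the log2 fold change was -0.07 between lrNK cells and blood (lower in 3 of 5 pigs, standard error 0.27, adjusted p = 0.910), -0.32 between lrNK and CD8α high liver NK cells (standard error 0.27, adjusted p = 0.516) and 0.25 between CD8α high liver NK cells and blood (standard error 0.27, adjusted p = 0.9996, each by edgeR with Benjamini-Hochberg). The first turned positive without pig 4 (0.04), pig 5 (0.10), the blood library of pig 4 (0.04) or the lrNK library of pig 5 (0.12). The last turned to -0.04 without pig 2.

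*FOSB* encodes an immediate early FOS protein and lies on chromosome 6 from 51836780 to 51844531. It was counted only 9 to 27 times per blood library, 3 to 30 times per CD8α high liver library and 4 to 41 times per lrNK library. These counts correspond to 4.06, 4.93, 7.33, 7.95 and 3.07 CPM in blood of pigs 1 to 5, to 3.11, 2.90, 0.836, 5.17 and 4.30 CPM in CD8α high liver NK cells and to 1.66, 2.88, 19.97, 7.02 and 2.09 CPM in lrNK cells. The lrNK library of pig 3 stood far above the rest, and the same pig gave the lowest CD8α high liver library. The log2 fold change between lrNK cells and blood was 0.28 (higher in 1 of 5 pigs, standard error 0.71, adjusted p = 0.843) and that between lrNK and CD8α high liver NK cells 1.01 (higher in 2 of 5 pigs, standard error 0.72, adjusted p = 0.428, edgeR, Benjamini-Hochberg). Neither direction was stable: the first was -0.05 with the pig as a block, -0.53 without pig 3 and -0.65 without the lrNK library of pig 3, and the second was -0.17 without pig 3.

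**Figure D1:**
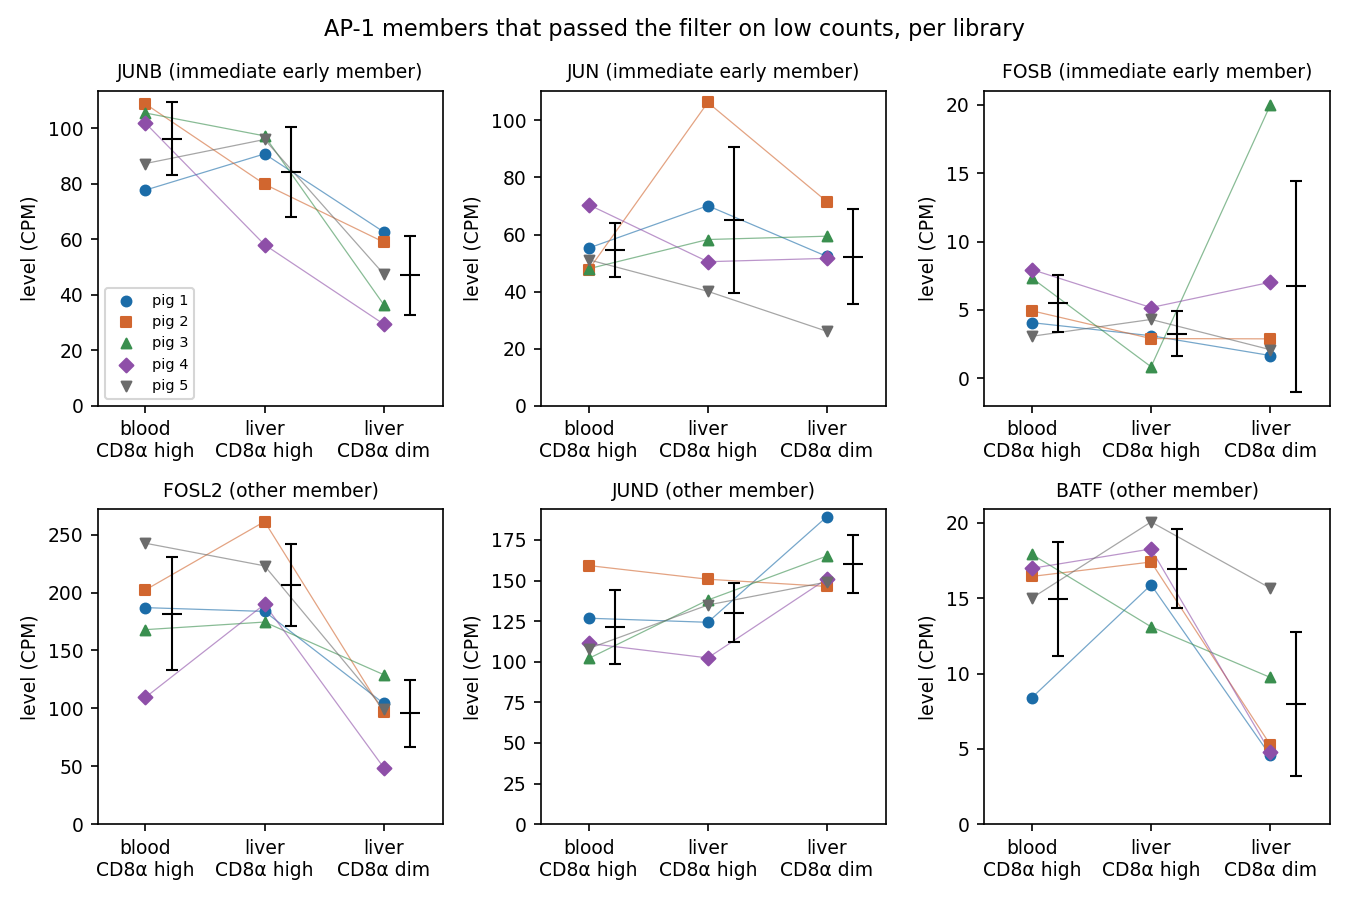
Level of each AP-1 member that passed the filter on low counts, in CPM (vertical axis), in the 3 NK cell populations (horizontal axis). Coloured symbols joined by a thin line are the libraries of 1 pig, and black bars give the mean ± SD of 5 pigs. *JUNB* and *FOSL2* are lowest in the lrNK library of every pig, and the *FOSB* level of 19.97 CPM in the lrNK library of pig 3 stands apart.

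The remaining 4 members had few counts. *FOS*, the prototype of the immediate early genes, on chromosome 7 from 98449508 to 98451971, was at 0 in 14 of 15 libraries and had 4 counts (0.689 CPM) in the CD8α high liver library of pig 4, the deepest of all. Whether reads of *FOS* fell beyond its gene model was not tested, so its counts of 0 do not show that it was not transcribed. *ATF3*, a stress-induced factor that can repress as well as activate, lies on chromosome 9 from 130772259 to 130829678 and was seen in 11 libraries, with 1 to 10 counts per blood library, 0 to 35 per CD8α high liver library and 0 to 7 per lrNK library. The 35 counts (9.23 CPM) belonged to the CD8α high liver library of pig 2, the library that was also the highest in *JUN*. *BATF3*, a BATF relative known from conventional dendritic cells, lies 60540 bases before *ATF3*, from 130699092 to 130711719, and had 0 to 6 counts per blood library, 0 to 11 per CD8α high liver library and 0 to 10 per lrNK library. The 2 highest of these, 11 and 10 counts, were both from pig 2. *MAFF*, a small MAF protein without an activation domain, on chromosome 5 from 9683651 to 9696128, was found in 3 libraries with 2, 3 and 10 counts. No difference between populations was detectable for these genes with these counts, and no gene model of the table overlapped any of the 10 members.

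Read as a group, 2 of the 6 tested members (*JUNB* and *FOSL2*) differed between lrNK cells and blood, both lower, where 18.2% of the 10939 tested genes passed, 8.62% higher and 9.6% lower. Against CD8α high liver NK cells it was again 2 of 6 and the same genes, both lower, where 14.6% of all tested genes passed, 6.96% higher and 7.68% lower. Both comparisons use the same lrNK libraries, so they are not independent of each other. The 2 calls were made by DESeq2 as well, and at an unadjusted p under 0.05 there were 4 members beside 3223 of the 10939 genes in the first comparison and 3 beside 2722 in the second (quasi-likelihood test of edgeR). Between CD8α high liver NK cells and blood 0 of 6 members passed, at an unadjusted p under 0.05 also 0, and DESeq2 called 0 as well. In that comparison 0.064% of the tested genes passed, which were 7 genes, with 549 at an unadjusted p under 0.05. The log2 fold changes there were 0.18 for *FOSL2*, -0.19 for *JUNB*, 0.10 for *JUND*, 0.18 for *BATF* and -0.73 for *FOSB*, each with an adjusted p of 0.9996 (edgeR, Benjamini-Hochberg). The median log2 fold change of the tested members was -0.48 between lrNK cells and blood, -0.58 between lrNK and CD8α high liver NK cells and 0.14 between CD8α high liver NK cells and blood, beside medians of 0.01, 0.02 and -0.02 over all tested genes. Leaving out pig 5 reduced the calls against blood to 1 (*JUNB*), and leaving out pig 3 reduced those against CD8α high liver NK cells to 1 (*FOSL2*). Leaving out the lrNK library of pig 3, the one least like its group, kept both genes in both comparisons.

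**Figure D2:**
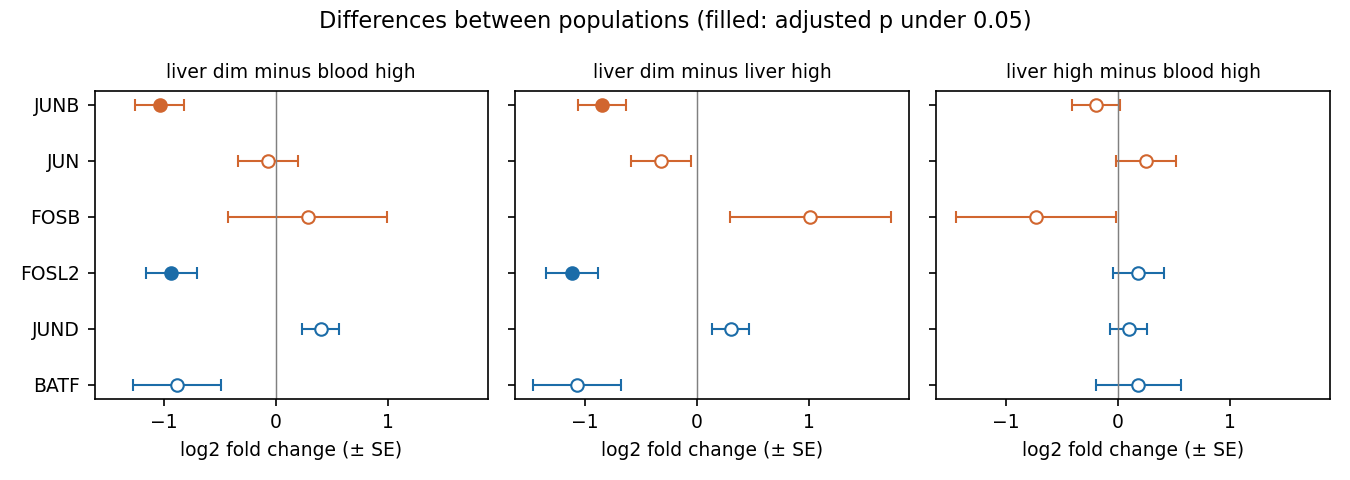
Log2 fold change (horizontal axis) of the 6 tested AP-1 members in the 3 comparisons, with the standard error as bars. Orange marks immediate early members, blue the others, and filled circles an adjusted p under 0.05. *JUNB* and *FOSL2* are filled in both comparisons that involve lrNK cells, and no member is in the comparison of CD8α high liver NK cells with blood.

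The immediate early members did not move together, and neither did the others. Of the immediate early genes 3 of 6 were tested and 1 (*JUNB*) passed in each comparison with lrNK cells, and of the others 3 of 4 were tested and 1 (*FOSL2*) passed. Of all tested genes, 18.2% passed against blood and 14.6% against CD8α high liver NK cells. Against blood, lrNK cells had a median log2 fold change of -0.07 for the 3 tested immediate early genes and -0.88 for the 3 others, and against CD8α high liver NK cells it was -0.32 and -1.07. Each median of 3 is the value of a single gene, *JUN* in the former class and *BATF* in the latter. Neither gene passed the threshold, so the medians do not show that one class fell more. Summed over all members of a class, immediate early genes had 158 ± 18.0 CPM (SD, n = 5) in blood, 156 ± 30.8 CPM in CD8α high liver NK cells and 107 ± 24.3 CPM in lrNK cells. For the others it was 319 ± 57.7, 354 ± 50.7 and 265 ± 40.2 CPM in the same order, and the 10 genes together 478 ± 48.6, 510.3 ± 75.8 and 372 ± 54.4 CPM. In these sums, unlike in the medians, the immediate early class was the one with the larger proportional decrease in lrNK cells. The sums were not tested.

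The immediate early share of the AP-1 counts was 33.6 ± 6.28% in blood, 30.5 ± 3.13% in CD8α high liver NK cells and 28.8 ± 4.57% in lrNK cells, lower in lrNK cells than in blood in 4 of 5 pigs, and it was not tested. It was highest in the blood library of pig 4, at 43.3% (95% Wilson interval 40.5 to 46.2%), and lowest in the lrNK library of pig 5, at 22.5% (20.3 to 24.8%), and the ranges of the 3 populations overlapped. Ratios within a library do not depend on its depth, and those of *JUNB* and of *FOSL2* to *JUND* set the lrNK libraries apart. Both divide a member called lower in lrNK cells by *JUND*, which had its highest mean in lrNK cells. Their separation therefore partly follows from the levels given above. Counts of *JUNB* divided by those of *JUND* gave 0.613, 0.683, 1.03, 0.916 and 0.808 in the blood libraries of pigs 1 to 5, 0.731, 0.530, 0.705, 0.567 and 0.712 in CD8α high liver NK cells, and 0.331, 0.403, 0.221, 0.195 and 0.319 in lrNK cells. All lrNK libraries lay below all others. The ratio of *FOSL2* to *JUND* behaved alike, with 1.52 ± 0.472 in blood, 1.60 ± 0.231 in CD8α high liver NK cells and 0.596 ± 0.173 in lrNK cells, where the highest lrNK library had 0.782 and the lowest of the other 10 libraries 0.984. *JUN* to *JUND* was 0.462 ± 0.119, 0.496 ± 0.152 and 0.328 ± 0.115, with overlap. Thus *FOSL2* had more counts than *JUND* in 9 of the 10 CD8α high libraries, while *JUND* had more in all 5 lrNK libraries. These ratios were formed after the levels were seen and were not tested. Reads of *FOS* and *JUN* beyond their gene models may not have been counted. The immediate early share and the ratio of *JUN* to *JUND* therefore hold for counted reads only.

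**Figure D3:**
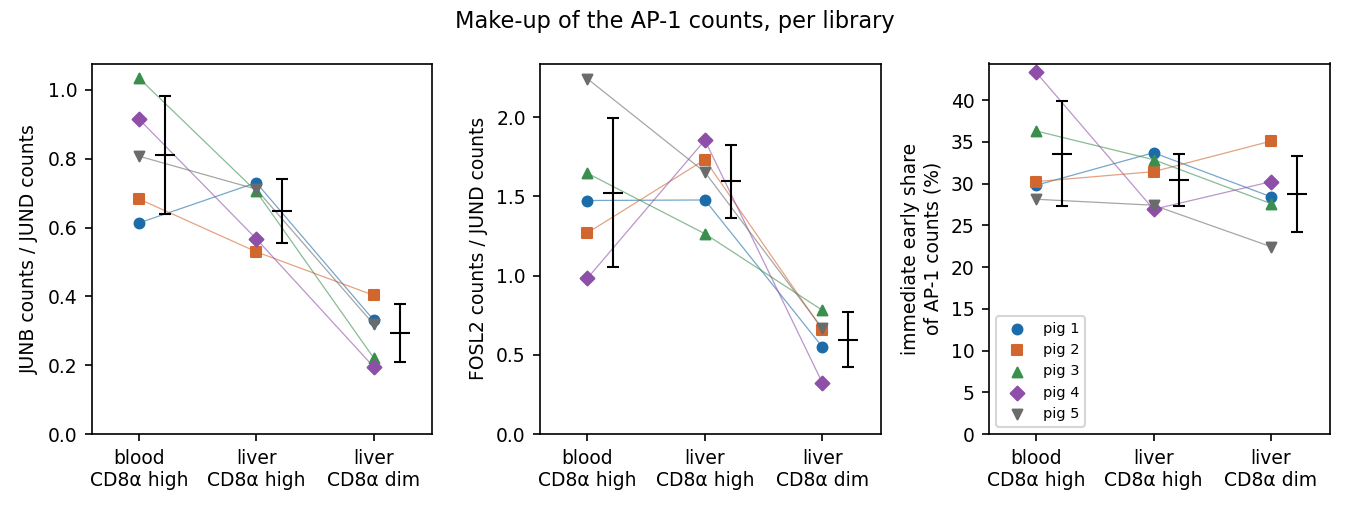
Ratio of *JUNB* to *JUND* counts, ratio of *FOSL2* to *JUND* counts and share of immediate early members in the AP-1 counts in percent (vertical axes), per library of the 3 populations (horizontal axes). Symbols are pigs, and black bars give the mean ± SD of 5 pigs. Both ratios are lower in each lrNK library than in any CD8α high library, whereas the share overlaps between the populations.

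Within the populations the correlations between tested members had both signs. After the mean of each population was subtracted from the log2 CPM, the 15 pairs of tested members had Pearson correlations over the 15 libraries between -0.54 (*JUNB* with *FOSB*) and 0.36 (*JUNB* with *JUND*), and that of *JUNB* with *FOSL2* was 0.23. The libraries of a pig share an animal, so these coefficients are a description and do not show that the members varied independently. Across all libraries, population differences included, the genes most like *JUND* were *SHMT1* (Pearson r = 0.874), *CFAP97* (0.865), *SLC12A7* (0.861), *TP53BP1* (0.836) and *PLK1* (0.834), each over 15 libraries. For *FOSL2* they were *LONRF3* (0.932), *GK5* (0.921), *ATP2B1* (0.911), *RHOQ* (0.909) and *IRAK3* (0.901), and for *JUNB* they were *SERPINB9* (0.940), *ANP32A* (0.934), *CD2AP* (0.931), *TTC7B* (0.927) and *TUBB6* (0.923). The profiles of *FOSL2* and *JUNB* were added after their values were seen, and no such ranking was made for *FOS* because it had too few counts to be tested. Among the genes most like *JUND*, *PLK1* had low means of 1.33 CPM in blood, 2.02 CPM in CD8α high liver NK cells and 6.43 CPM in lrNK cells. Only *CFAP97* of these genes passed between lrNK cells and blood (adjusted p = 0.00302, edgeR, Benjamini-Hochberg).

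Upstream of AP-1, the MAP kinase cascade and its phosphatases were read from lists. Every gene given with an adjusted p in this and the following paragraphs had the stated direction in 5 of 5 pigs. Of 34 tested kinases, 10 differed between lrNK cells and blood, 6 higher in lrNK cells and 4 lower (median log2 fold change -0.10, beside 18.2% of all tested genes). Against CD8α high liver NK cells, 5 kinases differed in lrNK cells, 3 higher and 2 lower (median -0.16, beside 14.6%). Between the CD8α high populations 0 of the kinases differed, beside 0.064% of all tested genes (edgeR). *MAP3K14*, which activates the non-canonical NF-κB pathway, fell by 1.27 against blood (adjusted p = 0.0113, edgeR, Benjamini-Hochberg), and *MAPK13*, a p38 kinase with 6 to 31 counts per lrNK library and 0 in 4 of 5 blood libraries, rose by 4.34 (adjusted p = 0.00823, edgeR, Benjamini-Hochberg). *MAP4K4* rose by 1.67 against blood (adjusted p = 0.0393) and by 2.03 against CD8α high liver NK cells (adjusted p = 0.0168, edgeR, Benjamini-Hochberg). Without the blood library of pig 1, the only one with counts (7), *MAPK13* differed by 7.90, so the size of its change is poorly fixed. Its call was lost without pig 2 (3.84, adjusted p = 0.0507, range over 26 alternatives 3.47e-04 to 0.0507, edgeR or DESeq2, Benjamini-Hochberg). *MAPK13* had 2 to 15 counts per CD8α high liver library, so it was among the tested genes mainly through the lrNK libraries, where it was high. It had a result against blood in only 26 of the 28 alternatives. *MAP4K4* lost its call in 10 and 2 of 28 alternatives, and *MAPK3*, which encodes ERK1, fell by 2.49 against blood but lost its call in 21 of 27, among them the blocked fit (adjusted p = 0.0726 by edgeR, Benjamini-Hochberg, in a range of 0.00897 to 0.216). Against CD8α high liver NK cells, *MAP4K1* rose by 0.97, *RPS6KA1* rose by 0.69 and *MAPK6* fell by 0.63, calls that were lost in 3, 6 and 3 of 28 alternatives.

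Of 8 tested MAP kinase phosphatases, which switch these kinases off and are themselves induced by them, 3 differed between lrNK cells and blood, 2 higher and 1 lower (median 0.52, beside 18.2% of all tested genes), and 2 between lrNK and CD8α high liver NK cells, 1 higher and 1 lower (median 0.21, beside 14.6%). Between the CD8α high populations 0 passed (median 0.38, beside 0.064% of all tested genes). *DUSP5*, a nuclear phosphatase of ERK, had 8.02 CPM in blood, 11.5 CPM in CD8α high liver NK cells and 63.5 CPM in lrNK cells. It rose by 2.98 against blood (adjusted p = 5.28e-07) and by 2.48 against CD8α high liver NK cells (adjusted p = 5.70e-06, edgeR, Benjamini-Hochberg). Its cytoplasmic counterpart *DUSP6* fell by 1.18 and by 1.45 (adjusted p = 0.0144 and 0.00417, edgeR, Benjamini-Hochberg), although the former call was lost without pig 4 (-1.17, adjusted p = 0.0540, the highest of a range that began at 5.40e-04, edgeR or DESeq2). *DUSP4* rose by 2.52 against blood (adjusted p = 0.00904, edgeR, Benjamini-Hochberg), a call lost without pig 1 (1.95, adjusted p = 0.0774) and without pig 5 (2.30, adjusted p = 0.0551, edgeR, Benjamini-Hochberg), in a range of 3.82e-05 to 0.0774 and with log2 fold changes from 1.95 to 3.60. Of the 6 factors that act at the serum response element of *FOS* and related genes, 0 passed in any comparison (edgeR). Of all tested genes, 18.2% passed between lrNK cells and blood, 0.064% between the CD8α high populations and 14.6% between lrNK and CD8α high liver NK cells. The medians of the 6 factors were -0.05, -0.07 and 0.10 in the same order. *SRF* itself had 102 ± 31.1, 91.6 ± 3.73 and 97.8 ± 47.4 CPM in blood, CD8α high liver NK cells and lrNK cells.

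Other immediate early genes set the AP-1 members in context. Of 32 tested, 18 differed between lrNK cells and blood, 11 higher and 7 lower (median log2 fold change 0.57, beside 18.2% of all tested genes), 5 were higher and 6 lower than in CD8α high liver NK cells (median 0.10, beside 14.6%), and 2 were higher in CD8α high liver NK cells than in blood (median 0.38, beside 0.064%). The nuclear receptor *NR4A3* fell from 150.5 CPM in blood and 222 CPM in CD8α high liver NK cells to 4.14 CPM in lrNK cells, by 5.27 on the log2 scale against blood (adjusted p = 2.03e-07, edgeR, Benjamini-Hochberg). The zinc finger genes *EGR3* and *EGR1* rose by 4.33 and 3.44 against blood, while *SGK1* fell by 3.15 (edgeR, adjusted p = 1.63e-05, 0.00382 and 1.28e-04, Benjamini-Hochberg). *SGK1* had 149.97 and 72.9 CPM in the blood libraries of pigs 4 and 2 and 19.0 to 28.2 CPM in the other 3. Over the alternatives these calls were kept, while the log2 fold changes against blood ran from -3.55 to -2.38 for *SGK1*, 3.98 to 5.01 for *EGR3*, 3.08 to 4.25 for *EGR1* and -5.86 to -4.87 for *NR4A3*. Of the 7 genes that passed between the CD8α high populations, 2 were of this list, *EGR3* with 3.54 and *NR4A2* with 2.13 (adjusted p = 0.0103 each, edgeR, Benjamini-Hochberg), and they lost their calls in 6 and 7 of 28 alternatives. In that comparison no AP-1 member passed. Thus immediate early genes changed in both directions in lrNK cells, and among the AP-1 members of that class *JUNB* was the one that passed. *NR4A1* and *EGR4* were listed at 0 in all 15 libraries, to which the same limit applies as to *FOS*.

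Of 27 further basic leucine zipper genes tested, 1 was higher and 3 were lower in lrNK cells than in blood (median 0.03, beside 18.2% of all tested genes). Against CD8α high liver NK cells 0 were higher and 3 lower, or 5 lower with the pig as a block (median -0.14, beside 14.6%). Between the CD8α high populations 0 of these genes differed (median 0.11, beside 0.064%, edgeR). *CREM*, a cAMP-responsive factor, rose by 0.79 against blood (adjusted p = 0.00529, edgeR, Benjamini-Hochberg), and *CEBPD*, a C/EBP factor of acute responses, fell by 3.48 against blood and by 3.67 against CD8α high liver NK cells (adjusted p = 0.00357 and 0.00277, edgeR, Benjamini-Hochberg). *CEBPD* was at 0 in 3 of 5 lrNK libraries, and without the lrNK library of pig 2 its log2 fold changes were -5.34 and -5.54, while both calls were kept in all 28 alternatives. *NFE2L2*, the regulator of the oxidative stress response, fell by 0.64 and 0.69 but lost its call in 17 and 11 of 28 alternatives, and *ATF2*, a partner of JUN, fell by 0.68 against CD8α high liver NK cells and lost it in 13. *CREBZF*, named after its values were seen, was the remaining gene lower than in blood (-0.65). The close AP-1 relatives *FOSL1* and *JDP2* did not pass the filter on low counts.

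Of the 7 tested partners of BATF and JUN, lrNK cells had 2 higher and 2 lower relative to blood (median log2 fold change -0.09, beside 18.2% of all tested genes) and 1 higher and 2 lower relative to CD8α high liver NK cells (median -0.03, beside 14.6%). *IRF8*, with which BATF binds composite sites, rose by 2.00 and 1.73 (adjusted p = 2.48e-05 and 1.51e-04), and *NFATC2*, the calcium-dependent partner of AP-1, fell by 1.53 and 1.48 (adjusted p = 5.19e-04 and 8.00e-04, edgeR, Benjamini-Hochberg). *RUNX3* fell by 1.07 against blood (adjusted p = 0.00479, edgeR, Benjamini-Hochberg) and by 0.75 against CD8α high liver NK cells, a call lost in 21 of 28 alternatives, and *PRDM1* rose by 0.52 but lost its call in 12 of 28 alternatives. *IRF8* also stood among the dendritic cell markers above. Of 22 genes known as targets of AP-1 in lymphocytes, 11 were tested, with 2 higher and 2 lower in lrNK cells relative to blood (median 0.09, beside 18.2% of all tested genes), and 0 higher and 2 lower relative to CD8α high liver NK cells (median -0.37, beside 14.6%). Of the latter, *CCND3* (-0.65) lost its call in 8 of 28 alternatives. *GZMB*, which encodes granzyme B, fell from 209 CPM in blood and 183 CPM in CD8α high liver NK cells to 32.9 CPM in lrNK cells, by 2.63 and 2.44 on the log2 scale (adjusted p = 5.59e-04 and 0.00122, edgeR, Benjamini-Hochberg). The chemokine genes *CCL4* and *XCL1*, named after their values were seen, were the 2 that rose against blood, by 2.90 and 1.44. Between the CD8α high populations 0 of the partners and 0 of the targets passed, beside 0.064% of all tested genes (edgeR).

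Heat shock genes, which respond to temperature and handling as *ATF3* and *JUN* can, were also read. The 13 genes of the list summed to 3060.5, 3939, 2952, 3079.9 and 3109.9 CPM in the blood libraries of pigs 1 to 5, to 3861, 7962, 5492, 4163 and 4084 CPM in CD8α high liver NK cells and to 4223, 5480.5, 7039, 5226 and 4598 CPM in lrNK cells. The CD8α high liver library of pig 2 was the highest, and it was also the highest in *JUN* (106 CPM) and *ATF3* (9.23 CPM), with 487 CPM of *HSPH1*, whereas the CD8α high liver libraries of the other 4 pigs had 104 to 232 CPM. The next highest, the lrNK library of pig 3, had 59.4 CPM of *JUN* and no counts of *ATF3*. The blood library of pig 4, with a heat shock sum of 3079.9 CPM, had 70.5 CPM of *JUN*. Relative to blood, 5 of 13 heat shock genes were higher in lrNK cells and 1 was lower (beside 18.2% of all tested genes), 0 were higher and 1 lower than in CD8α high liver NK cells (2 lower with the pig as a block, beside 14.6%), and 1 (*HSPA8*, lost in 8 of 28 alternatives) was higher in CD8α high liver NK cells than in blood, beside 0.064%. The median log2 fold changes of the 13 genes were 0.78, -0.03 and 0.74 in that order. Of the 5 genes higher than in blood, *HSPA1L* had 14 to 43 counts per lrNK library and 0 in 4 of 5 blood libraries. It had 0 to 28 counts per CD8α high liver library. *HSPA1L* was thus among the tested genes mainly through the lrNK libraries, where it was high, so the 5 of 13 was partly set by the filter. The part of the heat shock genes in the AP-1 levels was not tested. Without the CD8α high liver library of pig 2, *JUN* differed by 0.01 between CD8α high liver NK cells and blood instead of 0.25, and *JUNB* and *FOSL2* still passed in both comparisons with lrNK cells (edgeR).

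These measurements have limits. They come from 5 pigs, and leaving out a single pig ended the call of *FOSL2* against blood and that of *JUNB* against CD8α high liver NK cells. Of the immediate early members, *FOS*, *ATF3* and *MAFF* had too few counts to compare, and the counts of *FOSB* were few. AP-1 activity depends on protein level, phosphorylation and the choice of partner, none of which was measured. Liver and blood cells reached the sort by different routes, so tissue and handling cannot be told apart between them, whereas both liver populations came from the same flush.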

How the data were processed

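The authors trimmed the reads with QuasR, aligned them with HISAT2 through Rhisat2 to Sscrofa11.1 and deposited whole-number read counts for 29886 genes in 15 libraries. How reads were assigned to genes (program, strand, multiple alignments) is not stated in the sources used here. Genes were found by symbol. Levels are CPM after TMM scaling, and the 10939 genes kept by the expression filter were tested in 1 fit of population with the quasi-likelihood method of edgeR 4.0.16 in R 4.3.3, with Benjamini-Hochberg adjustment and a threshold of 0.05. Alternatives were DESeq2 1.42.0, other scaling, other filters, robust dispersion, the pig as a block, fits of only 2 populations, a threshold of 0.01, and leaving out each pig or each library. The pairing by pig comes from the study's methods and the labels. Residual correlations averaged 0.107 between libraries of the same pig (15 pairs) and -0.0265 between different pigs (60 pairs). Gene positions were read from a RefSeq table for Sscrofa11.1 that lacks the strand. The members and lists were chosen with earlier results of these data known, and the division into immediate early and other members follows general knowledge of these genes. The scripts were tested on simulated data. Python 3.11.15 summarised the tables, and matplotlib 3.10.9 made the figures.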

Additional observations from a re-analysis of the deposited data

Results flagged for a closer look

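A rule on the gap between 1 library and the next in its population, as a part of the range, marked 7 of 34 sets of 5 libraries. The sets were the levels of each AP-1 member in each population where it had counts, the immediate early share and the summed AP-1 level, and all 7 involve members with few counts. *FOS* had 0.689 CPM (4 counts) in the CD8α high liver library of pig 4 and 0 in the others. *BATF3* had 2.90 CPM (11 counts) in the CD8α high liver library and 4.80 CPM (10 counts) in the lrNK library of pig 2. *ATF3* was lowest in the blood library of pig 1, at 0.271 CPM (1 count), while the other blood libraries had 2.17 to 2.71 CPM. *MAFF* had 0.543 CPM (2 counts) in the blood library of pig 3, 2.39 CPM (10 counts) in the CD8α high liver library of pig 5 and 0.784 CPM (3 counts) in the lrNK library of pig 5, with 0 in all others. With 4 libraries at 0 the rule marks any count in the remaining library. Since a count of 0 allows up to 3 counts, the values of *FOS* in pig 4 and of *MAFF* in the blood library of pig 3 and the lrNK library of pig 5 cannot be told apart from the libraries at 0. None of the marked genes was among the 6 tested members, but *FOSB* in the lrNK library of pig 3, at 19.97 CPM beside 1.66 to 7.02 CPM in the other lrNK libraries, fell only just short of being marked.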

How the results depend on the processing

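Calls of AP-1 members were the same genes, *JUNB* and *FOSL2*, under every alternative method and threshold in both comparisons with lrNK cells, and 0 between the CD8α high populations. Leaving out a pig or a library gave 1 to 3 called members against blood (1 without pig 5, 3 without pig 2) and 1 to 3 against CD8α high liver NK cells (1 without pig 3, 3 without the lrNK library of pig 5). *FOSB* ran from -0.65 (without the lrNK library of pig 3) to 0.53 against blood and was -0.0485 in the fit blocked by pig, and against CD8α high liver NK cells it ran from -0.17 (without pig 3) to 1.36. *JUN* ran from -0.25 (without pig 2) to 0.12 (without the lrNK library of pig 5) between lrNK cells and blood, and from -0.0392 (without pig 2) to 0.44 (without pig 4) between CD8α high liver NK cells and blood. In the latter comparison *NKG7* was at 0.0140 with library totals and ran from -0.10 to 0.13, and *CD3G* ran from -0.18 to 0.0748. The number of genes that passed there was 7, and it was 24 with DESeq2, 18 without the filter, 16 with only these populations fitted, and 0 at a threshold of 0.01 or without pig 2. Among the listed genes the block by pig ended the calls of *MAPK3* and *KLF10* against blood and of *CD247* and *LYZ* against CD8α high liver NK cells. It added *CREB3*, *MAP2K5*, *MAP3K2*, *RGS2*, *HSPH1* and *HSP90AB1* against blood and *ATF1*, *CREBZF*, *MAPK14*, *MAPKAPK2*, *DUSP4*, *HSPB1* and *CD3E* against CD8α high liver NK cells. It changed no other call among them and none of an AP-1 member.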
